A study of Homo sapiens with 16 samples.

Results

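The genes described here are 45 ribosome biogenesis genes that are commonly named as targets of MYC proteins. They were chosen by symbol from what is known of their products, although earlier results of these data were known. They are 45 of the 27037 genes in the count table. All 45 passed the filter on low counts and were among the 15415 genes tested. They were grouped by role as 7 genes of RNA polymerase I and its factors, 4 RNA polymerase III subunits, 8 genes of the snoRNP core and its assembly, 11 of small subunit processing, 11 of large subunit processing and 4 abundant nucleolar proteins.

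Ribosomes are built in the nucleolus, where RNA polymerase I copies the large ribosomal RNA precursor, and RNA polymerase III makes the smallest ribosomal RNA and the transfer RNAs. Small nucleolar ribonucleoproteins (snoRNPs) guide the chemical modification of the precursor, and helicases, scaffolds and nucleases trim and fold it into the small and large subunits. MYC proteins bind E-boxes in the promoters of many of these genes, and neuroblastoma with amplified MYCN is known for large nucleoli. Because ribosome production usually rises with cell growth and division, these genes can also move with proliferation, so they were examined beside MYCN and beside proliferation genes.

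RNA was sequenced from SK-N-BE(2)C, an established adrenergic neuroblastoma line with amplified MYCN, which all groups share. There were 4 groups of 4 replicates: DMSO, the vehicle; RA, given 10 µM all-trans retinoic acid, a differentiating agent; PB, given 1 µM palbociclib, an inhibitor of the kinases CDK4 and CDK6; and PB+RA, given both at these doses. Treatment lasted 5 days. Replicates are separate passages of a single cell line, as the methods describe them. Samples held 19.5 to 31.6 M counts (M, 1e6). All 8 adrenergic markers examined were present, with DMSO means from 71.1 CPM (counts per 1e6 counts of the sample) for ISL1 to 881 CPM for PHOX2A, although mesenchymal markers were not absent, since VIM had a DMSO mean of 862 CPM while YAP1 had 1.34 CPM and FOSL1 0.905 CPM. These markers moved with treatment too. Of the 8 adrenergic markers 3 rose and 1 fell with PB, 3 rose and 2 fell with RA, and 3 rose and 2 fell with PB+RA. In PB+RA their changes on the log2 scale went from -2.41 to 1.88, the latter for TH, and 4 were below 0 and 4 above it. Of 7 mesenchymal markers 1 rose and 4 fell with PB, 3 rose and 0 fell with RA, led by FN1 at 2.06, and 1 rose and 3 fell with PB+RA. Their part in the changes below was not tested. The levels of total RNA and the number of cells were not measured here, and in bulk samples a change in the mix of cells and a change in RNA per cell cannot be told apart. All values are shares of polyadenylated RNA, so a fall is a fall relative to the other genes.

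The promoters of these genes were examined first, because the E-box letters CACGTG are the best known binding motif of MYC proteins. RefSeq promoters (250 bases before and 50 after each start, assembly GRCh38.p14) were found for 34 of the 45 genes, as 44 promoter entries. The letters, which read the same on both strands, occurred in 18 of the 34 genes and in 19 of the 44 entries (43.2%). They occurred in 9.15% of the 16478 promoter entries of tested genes and in 7.26% of all 35116 entries. The E-boxes lay close to the start: 18 of the 44 entries (40.9%) had an E-box that began within 50 bases of it, against 3.66% of the entries of tested genes. The 45 genes were picked as genes driven by MYC, so this share is a description of that choice. The windows of 30 bases below show the E-box, in capitals, of 8 genes that fell, rose or did neither in PB+RA. Distances are those of the first letter of the motif. The windows are printed 5′ to 3′ on the gene's strand, and the positions are their exact matches in GRCh37, the build of the files.

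FBL, chr19:40336996-40337025, minus strand, E-box 6 bases after the start: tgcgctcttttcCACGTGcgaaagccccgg
WDR43, chr2:29117524-29117553, plus strand, E-box 3 bases after the start: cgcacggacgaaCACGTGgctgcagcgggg
NOP14, chr4:2965101-2965130, minus strand, E-box 15 bases after the start: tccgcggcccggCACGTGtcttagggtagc
GAR1, chr4:110736937-110736966, plus strand, E-box 31 bases after the start: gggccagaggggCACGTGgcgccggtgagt
UTP20, chr12:101673861-101673890, plus strand, E-box 10 bases before the start: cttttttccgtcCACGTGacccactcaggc
MYBBP1A, chr17:4458635-4458664, minus strand, E-box 27 bases after the start: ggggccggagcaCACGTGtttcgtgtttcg
NOL6, chr9:33473892-33473921, minus strand, E-box 13 bases after the start: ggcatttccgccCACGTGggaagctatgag
POLR3A, chr10:79789291-79789320, minus strand, E-box 35 bases before the start: agaggaagcggaCACGTGggacactctacg

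E2F type letters (TTTGGCGC, TTTCGCGC, TTTCCCGC or TTTGCCGC, either strand) were rarer. They occurred in 3 of the 34 genes, UTP15, PES1 and EBNA1BP2, which is 6.82% of the 44 entries, against 4.72% of the entries of tested genes. The UTP15 and EBNA1BP2 promoters held the same 8 letters, shown in capitals, and no E2F type letters overlapped an E-box. The PES1 promoter held both kinds of letters, and EBNA1BP2 held them in different promoter entries.

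UTP15, chr5:72861358-72861387, plus strand, 199 bases before the start: atatttttgttTTTGCCGCctttacgctcc
EBNA1BP2, chr1:43637978-43638007, minus strand, 35 bases before the start: cggaagtatggTTTGCCGCcggaagcggaa

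**Figure D1:**
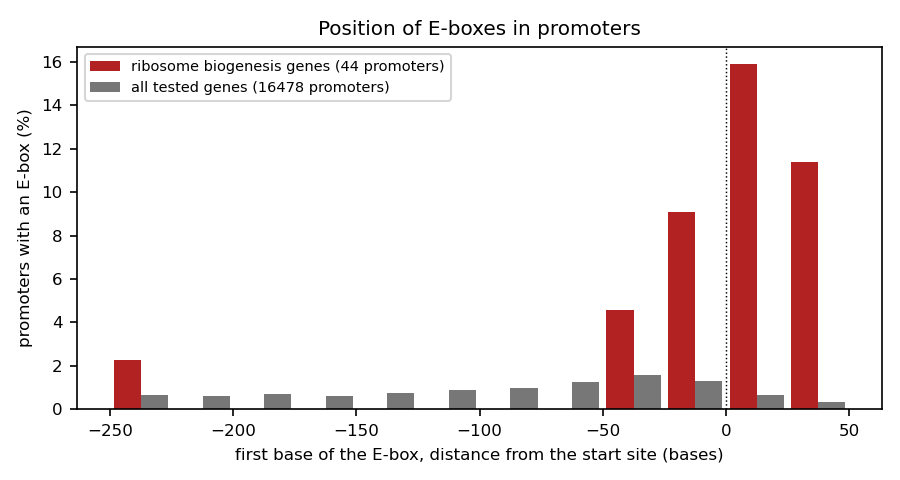
Bars give the percentage of promoter entries with an E-box that begins in each bin of 25 bases, for the ribosome biogenesis genes (red, 44 entries) and for all tested genes (grey, 16478 entries), and the dotted line is the start site. In the ribosome biogenesis genes the bins just after the start are the fullest, with 15.9% in the first and 11.4% in the second.

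MYCN and the proliferation genes, the references for what follows, moved in opposite directions under PB. MYCN stood at 2618, 3304, 3113 and 2752 CPM in DMSO, 2476, 3219, 2466 and 2378 in RA, 5352, 6337, 5159 and 5081 in PB, and 4862, 5451, 3867 and 3670 in PB+RA. Every PB and PB+RA sample lay above every DMSO and RA sample, and the latter overlapped. Every adjusted p below comes from the quasi-likelihood test of edgeR, adjusted by the Benjamini-Hochberg method over all tested genes. On this test MYCN rose by 0.90 in PB (log2 scale, adjusted p = 3.59e-05) and by 0.57 in PB+RA (0.00127), whereas its log2 fold change was -0.17 in RA (0.336). The value in PB+RA was 0.49 without PB+RA replicate 1 and 0.43 without PB+RA replicate 2. MKI67, which encodes the proliferation antigen Ki67, stood at 508, 443, 414 and 460 CPM in DMSO and at 419, 448, 402 and 361 CPM in RA. It had dropped to 154, 131, 150 and 162 CPM in PB and to 59.8, 42.6, 63.0 and 86.9 CPM in PB+RA. The log2 fold change of MKI67 was -1.61 in PB, -2.88 in PB+RA (adjusted p = 3.27e-07 and 3.06e-10) and, in RA, -0.17 (0.386). The 43 S phase genes had medians of -1.05 with PB, -0.35 with RA and -2.03 with PB+RA, and the 54 G2/M genes had medians of -1.05, -0.31 and -2.07. RNA with the pattern of MYCN RNA would thus be higher in PB than in DMSO. RNA with the pattern of the proliferation genes would be lower in PB and lowest in PB+RA.

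The summed level of the 45 genes decreased with each agent and most with both. It was 9489 ± 376 CPM in DMSO, 8510 ± 332 in PB, 8038 ± 479 in RA and 7156 ± 463 in PB+RA (SD, n = 4), which are changes of -10.3%, -15.3% and -24.6% from DMSO. By sample the sum was 9476, 10020, 9241 and 9213 CPM in DMSO, 8156, 8664, 7724 and 7609 in RA, 8476, 8970, 8182 and 8413 in PB, and 7176, 7803, 6844 and 6800 in PB+RA. All 12 treated samples lay below all DMSO samples, and the RA and PB samples overlapped each other. Much of the sum was NCL and NPM1, and without them the changes were -4.84% in PB, -13.8% in RA and -19.99% in PB+RA. The roles differed. The summed level changed by -30.6% for the abundant nucleolar proteins and by -30.8% for the snoRNP genes in PB+RA, whereas the RNA polymerase III subunits were 18.4% above DMSO in PB and 9.79% above it in PB+RA.

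**Figure D2:**
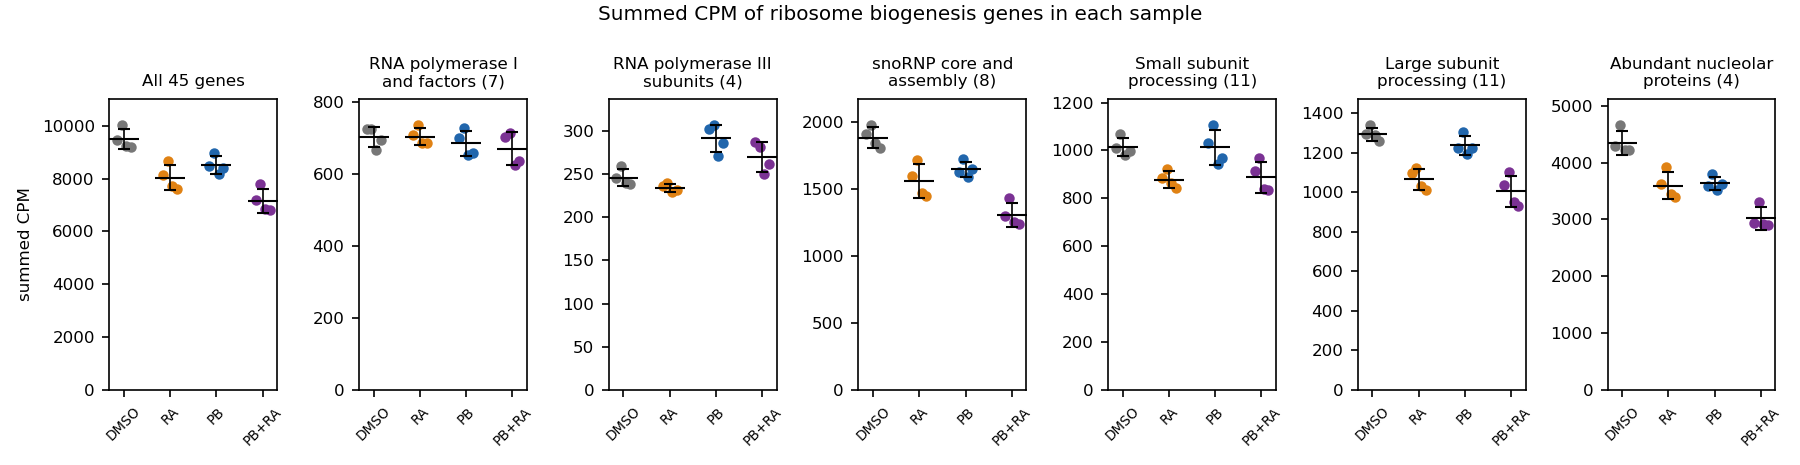
Points give the summed CPM of the 45 genes and of each role in each of the 16 samples, and the black marks give the mean and SD of each group (n = 4). The sum of all 45 lies at 6800 to 7803 CPM in PB+RA and at 9213 to 10020 CPM in DMSO, while the RNA polymerase III subunits stand highest in PB.

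PB moved some of these genes up and others down, as it did among all tested genes. With PB, 14 of the 45 fell and 10 rose at an adjusted p below 0.05, where 25.2% of all tested genes fell and 28.4% rose, and the median log2 fold change was -0.06 beside 0.03 for all tested genes. The median was -0.13 without PB replicate 2, and -0.13 with a correction for GC content and length, which moved that of all tested genes to -0.03. With the replicate number as a block, 19 fell and 11 rose, the added genes being TCOF1, DKC1, BYSL, EBNA1BP2 and DDX21 among the falls and BOP1 among the rises. In replicates 1 and 2 alone 13 fell and 10 rose, and in replicates 3 and 4 alone 22 and 8. The 14 that fell were UBTF, POLR3G, FBL, NOP58, GAR1, UTP4, WDR43, NOP14, NAT10, NOP2, RRS1, DDX18, NCL and NPM1. The 10 that rose were POLR1A, POLR1B, RRN3, POLR3A, POLR3D, NOL6, RRP12, WDR12, PPAN and MYBBP1A. With a log2 fold change past 0.5 as well, POLR3G (-0.94) and FBL (-0.89) were lower, where 11.3% of tested genes were, and RRP12 (0.59) was higher, where 16.9% were. RRP12 was at 0.46 without PB replicate 2, and the number of genes that rose was then 6. The GC content and length of the transcripts moved with these directions. The 10 that rose had a median length of 5164 bases and a median GC content of 50.8%, and the 14 that fell had 3531 bases and 44.7%, beside 3687 bases and 48.1% over 14682 tested genes. After the correction, 6 genes remained higher at an adjusted p below 0.05 (RRN3, POLR3A, NOL6, RRP12, PPAN and MYBBP1A), RRP12 was at 0.47, POLR1A was at -0.06 in place of 0.19, and 18 genes were lower.

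RA moved the genes in a single direction. It lowered 30 of the 45 at an adjusted p below 0.05, where 16.4% of all tested genes fell, and raised 0, where 18.8% rose. The tally of 0 was the same at an unadjusted p below 0.05, with DESeq2 and with limma-voom, while TCOF1 rose by 0.22 on the log2 scale when the replicate number was a block (adjusted p = 0.000544). The median log2 fold change was -0.23 beside 0.01 for all tested genes, so the typical fall was shallow. Past a log2 fold change of 0.5 there were 2 lower, POLR3G (-0.61) and RRS1 (-0.51), and 0 higher, where 2.54% and 10.8% of tested genes were. For POLR3G, RA against DMSO gave an adjusted p of 0.0577 without DMSO replicate 2 and 0.0505 without RA replicate 3, and RRS1 was at -0.49 without DMSO replicate 4. The count of genes that fell was 22 without DMSO replicate 2 and 17 in replicates 1 and 2 alone, against 39 in replicates 3 and 4 alone, although the median was -0.20 and -0.29 in these sets. The GC and length correction moved the median of all tested genes with RA from 0.01 to -0.09 and that of the 45 genes to -0.32, with 39 genes lower. With a replicate block 36 fell, the added genes being POLR1B, WDR75, NOL6, BYSL, BOP1 and MYBBP1A. Among all calls past the fold minimum with RA, the share of rises was 80.9%. It was 62.7% with the GC and length correction and 79.8% with the replicate block.

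PB+RA gave the deepest falls. At an adjusted p below 0.05, 28 of the 45 fell and 4 rose, where 31.4% of all tested genes fell and 34.7% rose, with a median of -0.33 beside 0.04 for all tested genes. The 4 that rose, RRN3, POLR3A, NOL6 and RRP12, were 2 without PB+RA replicate 1, and 1 of them, RRN3 (0.21), was higher after the GC and length correction. Past a log2 fold change of 0.5 there were 11 lower, where 17.9% of tested genes were, and 0 higher, where 24.0% were. The tally of 0 was the same at an unadjusted p below 0.05 and with DESeq2. The 11 were POLR3G (-1.64), FBL (-1.44), RRS1 (-0.93), DDX18 (-0.75), NPM1 (-0.68), NOP14 (-0.66), WDR43 (-0.61), GAR1 (-0.61), NOP58 (-0.53), DDX21 (-0.52) and NCL (-0.51). DDX21 was at -0.49 without DMSO replicate 2 and NCL at -0.49 without PB+RA replicate 4, whereas 17 genes were past the minimum without PB+RA replicate 2 and 17 with the GC and length correction. In replicates 1 and 2 alone 27 genes fell, and in replicates 3 and 4 alone 33.

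**Figure D3:**
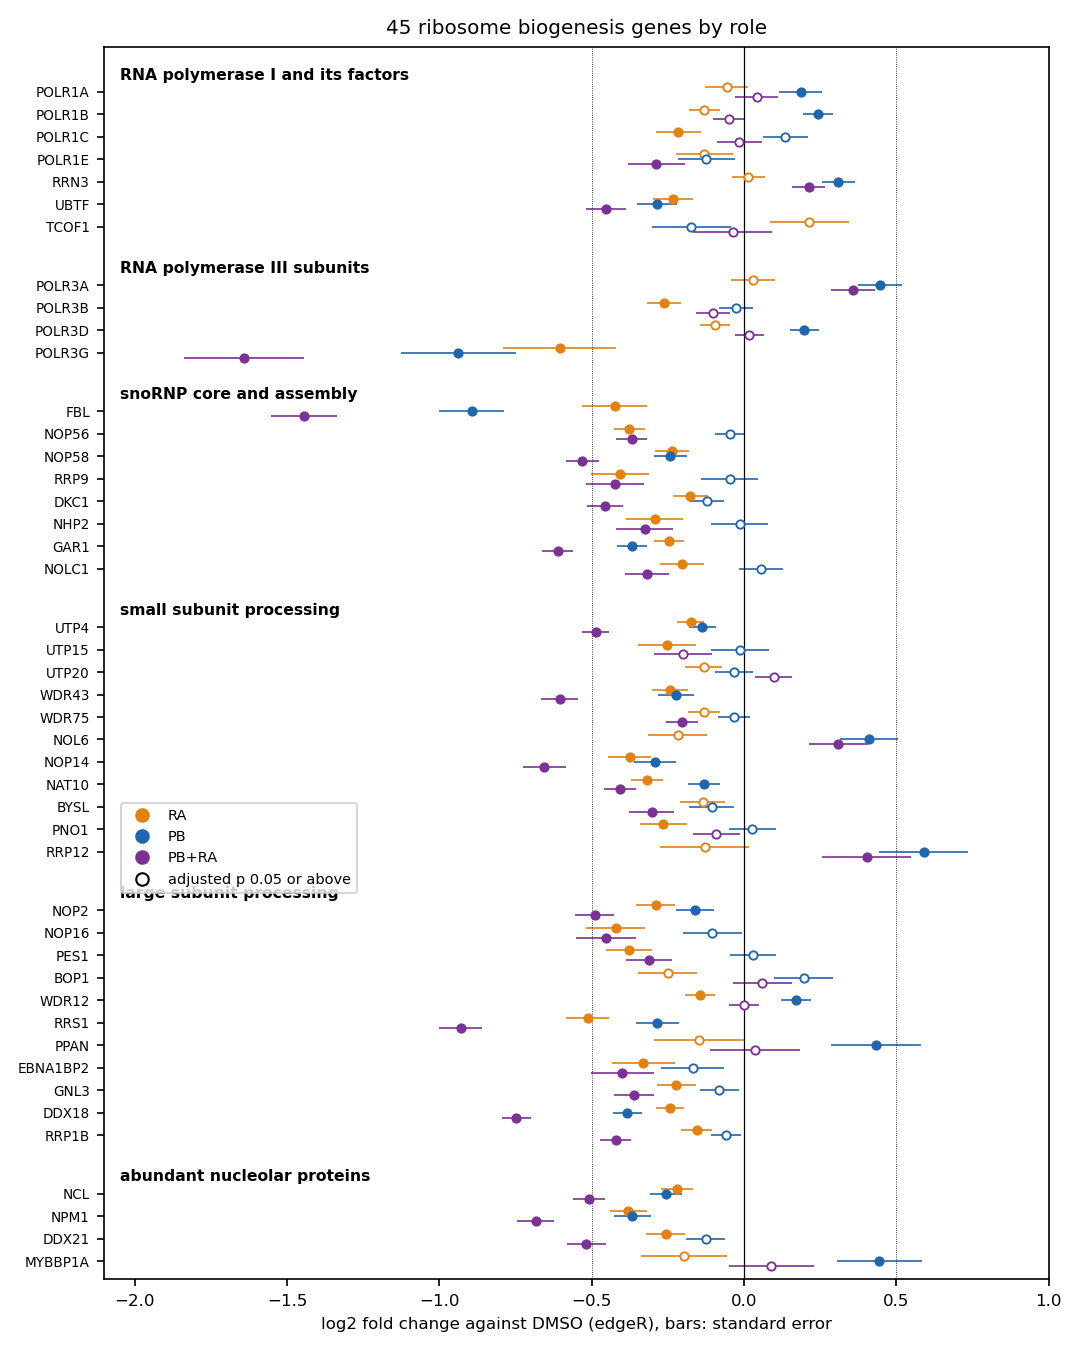
Points give the log2 fold change of each of the 45 genes against DMSO with RA (orange), PB (blue) and PB+RA (purple), with standard errors as bars, in edgeR's fit of all 16 samples. Filled points have an adjusted p below 0.05, dotted lines mark a log2 fold change of 0.5 either way, and POLR3G and FBL lie furthest to the left, at -1.64 and -1.44 with PB+RA.

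Among the genes of RNA polymerase I, the largest subunits and the promoter factor UBTF had different values with PB. POLR1A and POLR1B, which encode the largest subunits, rose with PB (log2 fold changes 0.19 and 0.24) and were near DMSO in PB+RA (0.04 and -0.05, adjusted p = 0.624 and 0.389). With the GC and length correction these rises did not pass the test (-0.06 and 0.13, adjusted p = 0.405 and 0.0878), and both genes fell in PB+RA, POLR1A by 0.29 and POLR1B by 0.22 (0.00018 and 0.00373). RRN3, which recruits the polymerase to the ribosomal RNA promoter, stood at 83.4, 93.9, 89.6 and 92.7 CPM in DMSO, 89.7, 92.6, 93.7 and 89.4 in RA, 116, 109, 111 and 109 in PB and 94.5, 110, 112 and 108 in PB+RA. Its PB and PB+RA samples all lay above its DMSO samples (log2 fold changes 0.31 and 0.21), while RA overlapped DMSO. UBTF, which holds the ribosomal RNA genes in an open state, stood at 191, 167, 187 and 189 CPM in DMSO, 160, 141, 167 and 162 in RA, 142, 145, 160 and 155 in PB and 146, 125, 137 and 139 in PB+RA. All treated samples were below the lowest DMSO sample, and UBTF fell by 0.29 with PB, 0.23 with RA and 0.45 with PB+RA on the log2 scale. POLR1E, a polymerase associated factor, stood at 21.3, 23.0, 21.3 and 22.2 CPM in DMSO, 21.1, 22.3, 19.97 and 17.2 in RA, 20.6, 23.5, 17.1 and 19.3 in PB and 19.6, 18.7, 17.3 and 17.7 in PB+RA. RA and PB overlapped DMSO, PB+RA did not, and POLR1E fell by 0.29 there (adjusted p = 0.0122). POLR1C, a subunit shared by polymerases I and III, fell with RA (-0.22). TCOF1, the nucleolar protein treacle, had a log2 fold change of 0.21 in the RA samples (adjusted p = 0.219) and of -0.04 in those given both agents (0.815). POLR1C and RRN3 overlap genes with more counts on the opposite strand, XPO5 and YIPF3 for the first and PDXDC1 for the second, so their counts are uncertain.

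The RNA polymerase III subunits held the largest fall of the set and also a rise. POLR3A, the largest subunit, stood at 89.4, 100, 86.2 and 91.0 CPM in DMSO, 94.8, 97.0, 92.4 and 92.5 in RA, 136, 137, 111 and 115 in PB and 127, 126, 108 and 117 in PB+RA. The DMSO and RA samples overlapped, and all PB and PB+RA samples lay above both (log2 fold changes 0.45 and 0.36 against DMSO, adjusted p = 6.48e-05 and 0.000338). With the GC and length correction these became 0.26 and 0.08. POLR3D, the gene of a smaller subunit, rose with PB (0.20) and was at 0.02 in PB+RA (adjusted p = 0.77). With the correction it was at 0.06 in PB (adjusted p = 0.404) and fell by 0.21 in PB+RA (0.00311). POLR3B, the second largest subunit, stood at 30.2, 28.8, 27.4 and 27.7 CPM in DMSO, 24.6, 23.4, 23.8 and 23.8 in RA, 28.4, 28.3, 26.0 and 29.3 in PB and 27.4, 28.7, 26.3 and 25.8 in PB+RA. Its RA samples lay below all others, and it fell by 0.26 with RA and was at -0.10 in PB+RA (adjusted p = 0.116), or -0.19 with the correction (0.0162).

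POLR3G and POLR3GL are alternative versions of a single polymerase III subunit, POLR3G being the form of stem and tumour cells and POLR3GL that of most adult tissues. POLR3G stood at 8.72, 10.8, 8.32 and 8.59 CPM in DMSO, 5.94, 7.84, 5.05 and 5.23 in RA, 5.11, 6.48, 3.61 and 3.80 in PB and 2.58, 3.81, 2.59 and 2.92 in PB+RA. POLR3GL, which is not among the 45, stood at 14.01, 15.04, 15.78 and 14.52 CPM in DMSO, 16.5, 17.3, 18.0 and 19.0 in RA, 21.6, 23.8, 23.9 and 23.0 in PB and 26.9, 26.6, 27.8 and 29.9 in PB+RA. The treated samples of POLR3G all lay below DMSO, with PB overlapping both RA and PB+RA. All groups of POLR3GL were apart from each other, in the reverse order of the POLR3G means. On the log2 scale POLR3G fell by 0.94 with PB, 0.61 with RA and 1.64 with PB+RA (SE 0.19, 0.19 and 0.20), and POLR3GL rose by 0.64, 0.24 and 0.88. The POLR3G row is low, and it overlaps MBLAC2, which had a mean of 25 CPM on the opposite strand against 5.71 CPM for POLR3G, so its counts are uncertain.

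**Figure D4:**
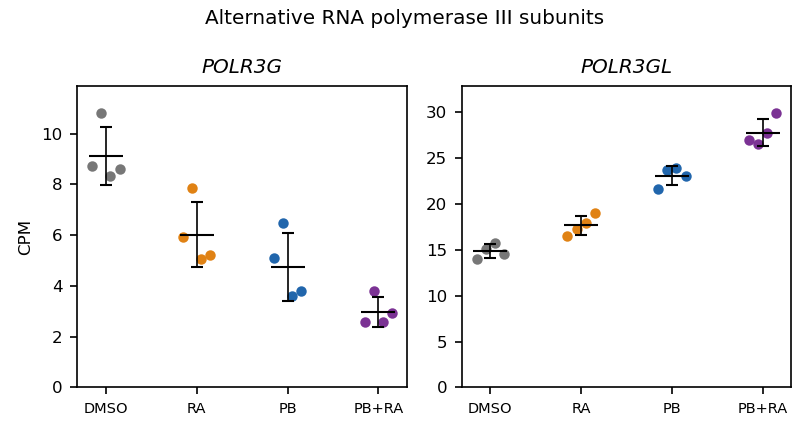
Points give the CPM of POLR3G and POLR3GL in each of the 16 samples, and the black marks give the mean and SD of each group (n = 4). The POLR3G means step down from 9.11 CPM in DMSO to 2.975 CPM in PB+RA, and the POLR3GL means step up from 14.8 to 27.8 CPM.

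The snoRNP genes were the most uniform role: all 8 fell with RA, all 8 fell with PB+RA, and 3 (FBL, NOP58 and GAR1) fell with PB. Of all tested genes, 16.4% fell with RA, 31.4% with PB+RA and 25.2% with PB. FBL, the methyltransferase fibrillarin of the C/D box snoRNPs, stood at 451, 456, 381 and 380 CPM in DMSO, 350, 351, 274 and 276 in RA, 220, 246, 205 and 225 in PB and 159, 183, 136 and 147 in PB+RA. The 4 groups did not overlap each other. FBL fell by 0.42 with RA, 0.89 with PB and 1.44 with PB+RA (SE 0.11, adjusted p = 6.7e-09), and its PB+RA level was 0.368 of the DMSO level in the fit. Its C/D box partners fell less: NOP58 was at -0.24 with PB and -0.53 with PB+RA, and NOP56 at -0.05 (adjusted p = 0.458) and -0.37. RRP9, which binds a snoRNA needed for cutting the precursor, fell by 0.41 with RA and 0.42 with PB+RA. Of the H/ACA proteins that guide pseudouridylation, GAR1 stood at 50.7, 49.4, 47.1 and 47.7 CPM in DMSO, 40.6, 40.7, 42.1 and 41.9 in RA, 37.3, 39.2, 36.2 and 38.2 in PB and 33.2, 34.6, 31.2 and 31.0 in PB+RA. Those 4 groups of GAR1 did not overlap either, and it fell by 0.61 with PB+RA. DKC1, the pseudouridine synthase dyskerin, fell by 0.46, NHP2 by 0.33 and the assembly chaperone NOLC1 by 0.32 with PB+RA. Per kilobase of transcript, FBL and NHP2 were the most abundant of this role in DMSO, at 298 and 294 CPM per kilobase.

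In small subunit processing, 6 of 11 genes fell and 2 rose with PB+RA, where 31.4% of all tested genes fell and 34.7% rose. NOP14, a factor of the small subunit processome, stood at 155, 162, 147 and 147 CPM in DMSO, 120, 132, 113 and 109 in RA, 124, 132, 118 and 125 in PB and 107, 105, 93.0 and 89.8 in PB+RA. RA and PB overlapped, and PB+RA lay below all other samples. WDR43, a subunit of the complex that couples transcription to processing, stood at 143, 161, 144 and 140 CPM in DMSO, 127, 133, 122 and 118 in RA, 125, 131, 119 and 129 in PB and 90.4, 106, 96.2 and 101 in PB+RA. Its pattern was the same as that of NOP14 (log2 fold changes -0.61 and -0.66 in PB+RA). UTP4 (-0.49), the acetyltransferase NAT10 (-0.41), BYSL (-0.30) and WDR75 (-0.20) fell with PB+RA. UTP15 (-0.20, adjusted p = 0.0727, or 0.00811 with a replicate block), PNO1 (-0.09, 0.305) and UTP20 (0.10, 0.178) did not pass the test.

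NOL6 and RRP12 went the other way. NOL6, a processome protein, stood at 74.8, 81.3, 72.6 and 80.5 CPM in DMSO, 68.6, 69.3, 64.7 and 64.6 in RA, 105, 123, 89.2 and 93.6 in PB and 106, 111, 87.2 and 85.6 in PB+RA. RRP12, which acts in the export of both subunits, stood at 105, 109, 98.7 and 97.4 CPM in DMSO, 95.1, 105, 89.9 and 86.8 in RA, 169, 186, 133 and 129 in PB and 159, 172, 115 and 106 in PB+RA. For both genes all PB samples were above all DMSO samples, and replicates 1 and 2 were higher than replicates 3 and 4 within PB and within PB+RA. The log2 fold change with PB was 0.53 for NOL6 and 0.72 for RRP12 in replicates 1 and 2 alone, and 0.22 and 0.38 in replicates 3 and 4 alone.

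In large subunit processing, 9 of 11 genes fell with RA and 8 with PB+RA, and 0 rose with PB+RA (0 also at an unadjusted p below 0.05). Of all tested genes, 16.4% fell with RA, and 31.4% fell and 34.7% rose with PB+RA. RRS1, which brings the smallest ribosomal RNA into the large subunit, stood at 118, 106, 125 and 125 CPM in DMSO, 89.5, 80.1, 81.8 and 82.6 in RA, 88.3, 94.1, 100 and 106 in PB and 58.2, 61.8, 65.8 and 68.0 in PB+RA. PB overlapped both DMSO and RA, PB+RA lay below all other groups, and RRS1 fell by 0.93 there (SE 0.07, adjusted p = 6.48e-09). DDX18, a helicase, stood at 100, 103, 97.9 and 100 CPM in DMSO, 84.6, 88.0, 87.1 and 81.3 in RA, 76.3, 78.0, 75.1 and 78.0 in PB and 55.6, 64.3, 60.7 and 63.0 in PB+RA. None of its groups overlapped, and it fell by 0.24, 0.38 and 0.75 with RA, PB and PB+RA. The RNA methyltransferase NOP2 (-0.49), NOP16 (-0.45), RRP1B (-0.42), EBNA1BP2 (-0.40), the stem cell protein nucleostemin GNL3 (-0.36) and PES1 (-0.31) fell with PB+RA. PES1 forms a complex with BOP1 and WDR12. With PB+RA these partners did not pass the test, BOP1 at 0.06 (adjusted p = 0.604) and WDR12 at 0.00 (0.996). The BOP1 value hid opposite changes, 0.28 in replicates 1 and 2 alone and -0.24 in replicates 3 and 4 alone. Its PB+RA samples lay above all DMSO samples in replicates 1 and 2 and below all of them in replicates 3 and 4. PPAN rose with PB (0.43) and was at 0.04 in PB+RA (adjusted p = 0.838), and its counts are uncertain because a read-through transcript joins it to the next gene.

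The abundant nucleolar proteins carried the most RNA. NPM1, the histone and ribosome chaperone nucleophosmin, stood at 1569, 1703, 1582 and 1547 CPM in DMSO, 1270, 1355, 1152 and 1172 in RA, 1239, 1289, 1186 and 1249 in PB and 980, 1131, 959 and 990 in PB+RA. NCL, nucleolin, stood at 2034, 2182, 1964 and 2010 CPM in DMSO, 1760, 1920, 1722 and 1667 in RA, 1650, 1772, 1703 and 1721 in PB and 1443, 1573, 1448 and 1408 in PB+RA. Their PB+RA samples lay below all samples of the other groups, and the RA and PB samples overlapped. NPM1 fell by 0.68 in PB+RA on the log2 scale, by 0.37 under PB alone and by 0.38 under RA alone, and NCL by 0.51, 0.26 and 0.22. DDX21, a helicase that acts with polymerases I and II, stood at 576, 658, 579 and 563 CPM in DMSO, 508, 543, 485 and 465 in RA, 558, 570, 514 and 535 in PB and 394, 463, 423 and 411 in PB+RA. DMSO and PB overlapped, and its log2 fold change with PB was -0.13 (adjusted p = 0.106, or -0.12 and 0.00938 with a replicate block) against -0.52 with PB+RA. MYBBP1A, a regulator of polymerase I, rose with PB (0.44) and was at 0.09 in PB+RA (adjusted p = 0.588).

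**Figure D5:**
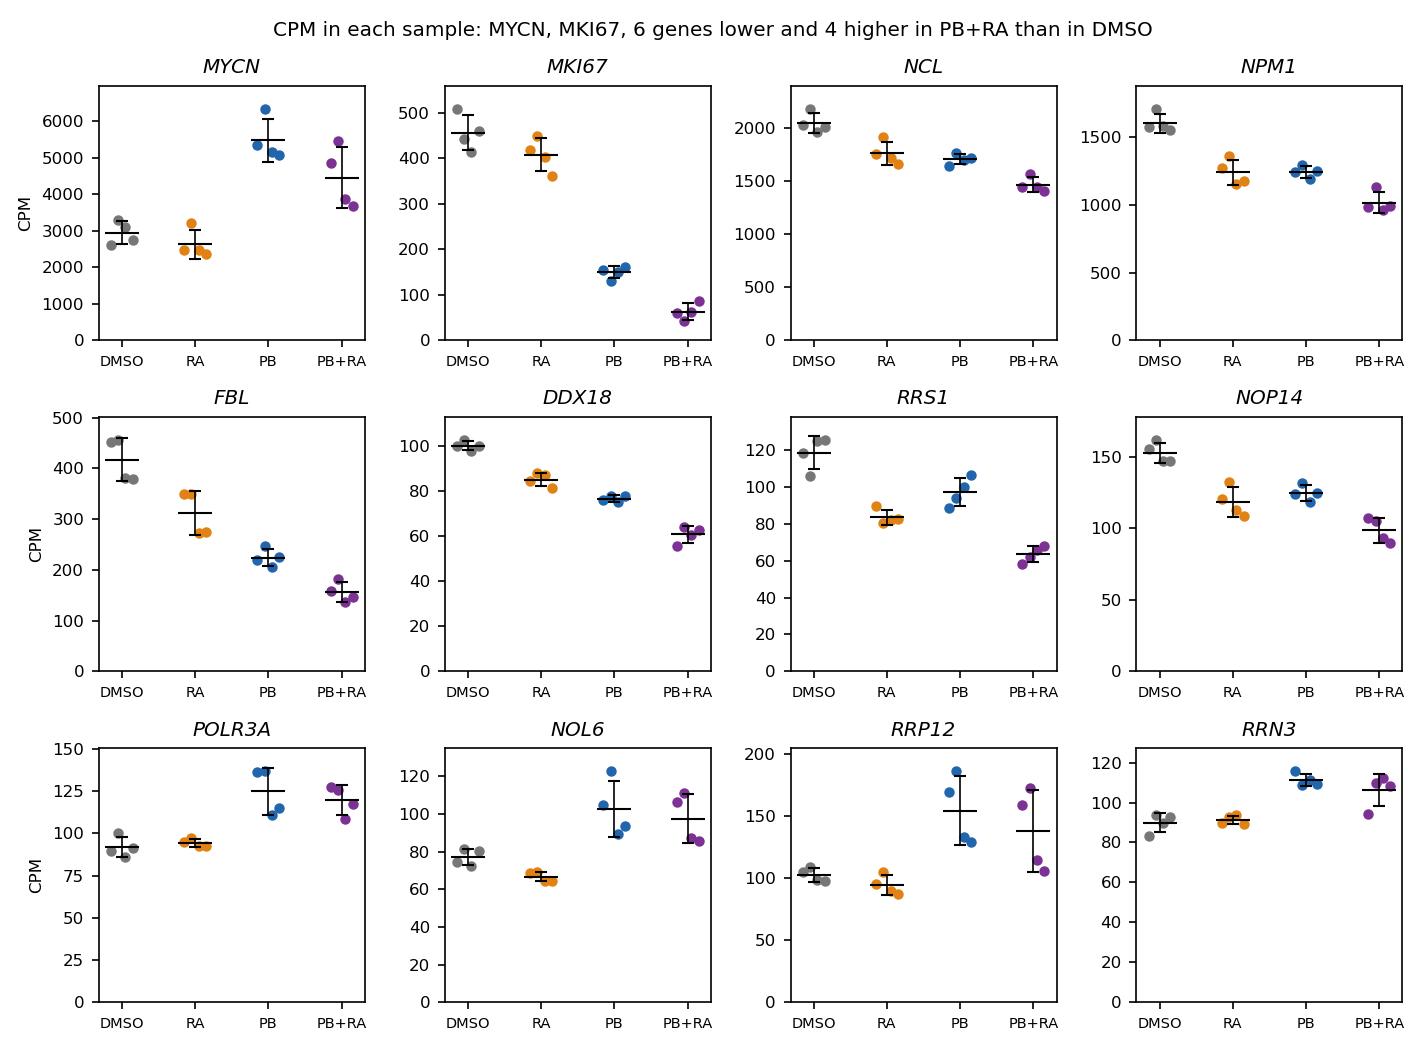
Points give the CPM of MYCN, MKI67 and 10 of the 45 genes in each of the 16 samples, and the black marks give the mean and SD of each group (n = 4). NCL, NPM1, FBL, DDX18, RRS1 and NOP14 are lowest in PB+RA, and POLR3A, NOL6, RRP12 and RRN3 are highest in PB, as MYCN is.

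The effect of each agent was then examined with the other agent present. For each agent, the comparison alone and the comparison on top of the other agent share no sample, although samples with the same replicate number may be paired. RA added to PB lowered 29 of the 45 at an adjusted p below 0.05, where 20.9% of tested genes fell, and raised 0, where 17.2% rose. The tally of 0 was the same at an unadjusted p below 0.05 and with DESeq2, and TCOF1 rose by 0.13 with a replicate block (adjusted p = 0.0257). Of the 30 genes lowered by RA alone, 24 were also lowered by RA on top of PB, which is 80.0% of the first list and 82.8% of the second. The 29 were 64.4% of the 45 genes, and over all tested genes the overlap was 72.1% of the first list and 56.5% of the second. With a replicate block 36 of the 45 were lowered, and the counts were 20 in replicates 1 and 2 alone and 34 in replicates 3 and 4 alone. The median was -0.28 beside -0.01 for all tested genes. Past a log2 fold change of 0.5, POLR3G (-0.70), RRS1 (-0.65) and FBL (-0.55) were lower, where 7.27% of tested genes were, and 0 were higher, where 9.02% were. FBL was at -0.49 without PB+RA replicate 3.

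PB added to RA lowered 16 of the 45 and raised 9 at an adjusted p below 0.05, where 27.9% and 26.5% of tested genes did so. Of the 14 genes lowered by PB alone, 13 were lowered again, and of the 10 raised by PB alone, 5 were raised again, with 0 in the opposite direction. The 16 and 9 were 35.6% and 20% of the 45 genes, and over all tested genes 83.3% of those lowered and 73.8% of those raised by PB alone were called again. With a replicate block 20 were lowered and 12 raised. In replicates 1 and 2 alone 14 were lowered and 8 raised, and in replicates 3 and 4 alone 20 and 7. Past a log2 fold change of 0.5, POLR3G (-1.04), FBL (-1.02) and DDX18 (-0.51) were lower, where 14.1% of tested genes were, and NOL6 and RRP12 (0.53 each) were higher, where 14.9% were. NOL6 was at 0.46 and RRP12 at 0.43 without PB+RA replicate 1, and at 0.44 and 0.39 without PB+RA replicate 2. DDX18 was at -0.48 without RA replicate 3 and at -0.49 without PB+RA replicate 1. The number raised was 5 without PB+RA replicate 1 and 12 without PB+RA replicate 4. Across the 45 genes the 2 estimates of the PB effect had r = 0.938 and those of the RA effect r = 0.737, as a description over 45 genes, each estimate from its own 8 libraries. POLR3G (-0.94 and -1.04) and FBL (-0.89 and -1.02) were far the lowest in both PB estimates. The r without them was not computed.

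No departure from additivity passed edgeR's test in these genes. On the log2 scale the interaction is the PB+RA change minus the sum of the single changes. It was past the test for 0 of the 45 genes, where 5.29% of tested genes were at an adjusted p below 0.05 and 3.44% past a log2 value of 0.5 as well. At an unadjusted p below 0.05, 3 were negative and 2 positive, limma-voom called 0 and DESeq2 called 1 positive at its adjusted p. With a replicate block, NOLC1 (-0.17), UTP4 (-0.18) and RRP1B (-0.21) were negative and UTP20 (0.26) was positive at an adjusted p below 0.05, as was UTP20 with the GC and length correction (0.39, adjusted p = 0.00138). The median of the 45 was -0.04, the same as that of all tested genes, and 0.02 with the GC and length correction. The S phase genes differed in this measure, with a median of -0.62 and 23 of 43 past both thresholds, and MKI67 was at -1.11.

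The 4 group means were ordered for each gene and set beside MYCN and MKI67. The MYCN order was PB, PB+RA, DMSO and RA from highest to lowest, and 9 genes had it: POLR1A, POLR1C, POLR3D, NOL6, RRP12, BOP1, WDR12, PPAN and MYBBP1A. These means carry no GC and length correction. With it, PB+RA fell below DMSO for POLR1A (-0.29) and POLR3D (-0.21). MYBBP1A (-0.13), BOP1, WDR12, PPAN (-0.09 each) and POLR1C (-0.08) were also below 0, without passing the test. NOL6 (0.09) and RRP12 (0.19) stayed above 0, also without passing it. The MKI67 order was DMSO, RA, PB and PB+RA, and 8 genes had it: POLR1E, UBTF, POLR3G, FBL, NOP58, GAR1, DDX18 and NCL. The other 28 had neither order, and some of them, such as NPM1 and NOP14, differed from the MKI67 order only in the placing of RA and PB. Neither MYCN nor MKI67 passed the test in RA against DMSO, so the placing of DMSO and RA in both orders is uncertain. How often all tested genes take these orders was not counted. DMSO was the highest group for 28 of the 45 and PB for 15, and the lowest was PB+RA for 25 and RA for 17. Many neighbours in these orders overlapped by sample, as RA and PB did for NOP14, WDR43, NPM1 and NCL. Genes with and without an E-box were in both camps: the median log2 fold change with PB was -0.12 for the 18 genes with an E-box (from -0.89 to 0.45) and -0.02 for the 16 without (from -0.37 to 0.43). In PB+RA these medians were -0.40 and -0.20. In PB+RA, MYCN RNA rose while 28 of the 45 fell and 4 rose, where 31.4% of all tested genes fell and 34.7% rose. The median of the 45 in PB+RA was -0.33, against -2.03 for the S phase genes. Whether MYCN or proliferation sets the level of these genes was not tested.

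RNA of the MYC network, the partners and antagonists that share MAX with MYCN, shifted at the same time. MAX itself rose by 0.51 with PB+RA. The antagonists MXD1 (1.47), MXD4 (1.12), MXI1 (0.80) and MNT (0.52) rose with PB+RA, while MXD3, an antagonist expressed in dividing cells, fell by 2.46. MXD4 went from a mean of 97.8 CPM in DMSO to 217 CPM in PB+RA, and MXD3 from 31.4 to 5.83 CPM. MLXIP, of the related MLX branch, rose by 0.94, and MYCL rose with RA (1.57) from a mean of 0.921 to 2.78 CPM. MYC rose with PB (0.75), RA (1.21) and PB+RA (2.06), but from a mean of 2.21 to 9.43 CPM it remained far below MYCN. MYCNOS, the antisense transcript of MYCN, rose by 1.43 with PB, although the strand used in counting was not stated and reads of a gene and its antisense partner cannot then be told apart. MAX was at 0.47 without DMSO replicate 1 or 2 and at 0.48 without PB+RA replicate 1 or 2, and MNT was at 0.45 without DMSO replicate 3 or PB+RA replicate 1 or 2. Protein levels and MYCN binding were not measured here, and the part of these genes in the changes was not tested.

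Genes of the same pathway outside the 45 also fell more often than they rose. Of 149 other ribosome biogenesis genes tested, 103 fell and 11 rose with PB+RA at an adjusted p below 0.05, with a median of -0.33. Past a log2 fold change of 0.5, 42 fell and 2 rose. Of all tested genes, 31.4% fell and 34.7% rose with PB+RA, and 17.9% fell and 24.0% rose past that minimum. The deepest falls were EXOSC9 (-1.83, from a mean of 71.4 to 20.6 CPM) and EXOSC8 (-1.61), both of the RNA exosome that trims the precursor, and the polymerase III subunit POLR3K (-1.17). The rises were POLR3GL and TAF1C (0.56), a part of the polymerase I promoter factor, and TAF1C was at 0.45 without PB+RA replicate 1 and at 0.47 without PB+RA replicate 2. RNA polymerase II subunits were not exempt: 8 of 12 fell, with a median of -0.40, and POLR2D (-0.78), POLR2E (-0.63) and POLR2H (-0.60) passed the fold minimum, while POLR2G fell past it with PB (-0.50). Of 29 MYC targets outside the ribosome, 26 fell and 0 rose with PB+RA, with a median of -0.55. The 78 cytosolic ribosomal protein genes tested had another pattern, with a median of 0.13 with PB (31 rose and 5 fell), -0.20 with RA (0 rose and 57 fell) and -0.07 with PB+RA (8 rose and 25 fell). Of all tested genes, 28.4% rose and 25.2% fell with PB, and 18.8% rose and 16.4% fell with RA. The 17 host genes of snoRNAs that encode no protein had medians of 0.00 with PB, -0.24 with RA and -0.13 with PB+RA.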

How the data were processed

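RNA-seq of 16 samples was analysed. According to the study's methods, the authors selected polyadenylated RNA, made directional libraries and trimmed the paired reads (minimum phred score 20). Per the labels, the tools were Trim Galore 0.6.4, STAR 2.6.1d and DESeq2 1.32.0, and the build was hg19. The deposited counts are unnormalized reads per gene. The deposited CPM equal count over total within 5e-12. The annotation release and the strand column are not given in the sources used here. The authors' table of fold changes and p-values was not used.

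Counts were fitted in R 4.3.3 with edgeR 4.0.16: filterByExpr (15415 genes), TMM factors (0.983 to 1.02), all 16 samples, group means, robust quasi-likelihood test, Benjamini-Hochberg adjustment over all genes tested. Rose and fell mean an adjusted p below 0.05, and an absolute log2 fold change above 0.5 is named where used. SE is the fold change over the square root of F. Summed and per-sample levels are deposited CPM. The 45 genes and all gene lists were chosen with earlier results of these data known. All 45 are named. Values by sample are given for the 2 per role with the largest PB+RA change at 10 CPM or more, for those opposite to most, for POLR3G and POLR3GL, and for MYCN and MKI67. From other lists, all genes of the MYC network and of RNA polymerase II past the fold minimum and up to 3 of the largest falls and rises past it among other biogenesis genes are named. NCL, one of the 45, was added to the genes with values by sample after its values were seen. GENCODE models on GRCh37 gave exon length and GC content for 95.2% of tested genes, and the GC and length correction used splines with 5 degrees of freedom as offsets. Alternatives were DESeq2 1.42.0, limma-voom (limma 3.58.1), other size factors, filters and fold minima, a replicate block, and leaving out each sample. The procedure was tested on simulated data.

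Titles give the replicate numbers. Deviations from group means correlated at r from 0.330 to 0.573 in all 24 pairs with the same number. In the 72 other pairs r went from -0.492 to 0.447, so the ranges overlap. PB replicate 4 had r = 0.447 with PB+RA replicate 3 and 0.435 with PB+RA replicate 4. The numbers may thus pair the samples, but pairing by each number is not shown. Replicates 1 and 2 stood apart from 3 and 4 in every group, so counts of falls and rises within each set are given.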

Additional observations from a re-analysis of the deposited data

Results flagged for a closer look

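In 4 of the 180 groups of 4 samples (45 genes in 4 groups, 2.22%), a single sample lay far from the other 3 by Dixon's test, where chance gives about 5%. UBTF was at 167.2 CPM in DMSO replicate 2, below the other DMSO samples. POLR3G was at 10.8 CPM in DMSO replicate 2, above the others. DKC1 was at 229.5 CPM and UTP15 at 31.38 CPM in RA replicate 2, each apart from the other RA samples.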

How the results depend on the processing

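Of the medians and the counts past the fold minimum of the 45 genes, only the median of the interaction, which had no call, changed sign (from -0.04 to between 0.0018 and 0.034 under 9 alternatives). With the GC and length correction, and equally with it and the replicate block, 0 genes were higher with PB and 0 with PB+RA against RA, 17 were lower with PB+RA, and the medians were -0.13 with PB, -0.32 with RA (-0.33 with the block) and -0.43 with PB+RA. The replicate block alone changed no count past the fold minimum, while at an adjusted p alone it gave 19 lower with PB and 36 with RA. With no fold minimum the lower and higher counts were 14 and 10 (PB), 30 and 0 (RA), 28 and 4 (PB+RA), 29 and 0 (PB+RA against PB), and 16 and 9 (PB+RA against RA). With a minimum of 1 they were 0 and 0, 0 and 0, 2 and 0, 0 and 0, and 2 and 0.

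Leaving out 1 sample gave 0 to 1 higher (PB) with a median from -0.13 to -0.069, 1 to 2 lower (RA), 10 to 17 lower and 0 to 1 higher (PB+RA), and 0 to 2 higher (PB+RA against RA). Replicates 1 and 2 alone gave 3 higher (PB), 0 lower (RA) and 1 higher (PB+RA). Replicates 3 and 4 alone gave 0 higher (PB), 4 lower (RA), 18 lower (PB+RA) and 0 higher (PB+RA against RA), with medians of -0.15 (PB) and -0.45 (PB+RA). Without the 4 genes whose counts are uncertain, 1 was lower with PB and 1 with RA. The summed CPM without NPM1 and NCL was -4.84% with PB. Unless stated, the cause was not tested. Depth limits POLR3G most, at 2.975 CPM in PB+RA. The fold minimum of 0.5 parts genes that differ by less than their SE.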
